A study of Mus musculus with 4 samples.

Results

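The D-type cyclins, their kinase partners and the inhibitors that hold these kinases in check were followed in RNA-seq libraries of mTFP-positive cells from the mouse retina. The set was chosen by name and holds 10 of the 24322 genes listed in each library: *Ccnd1*, *Ccnd2*, *Ccnd3*, *Cdk4*, *Cdk6*, *Cdkn1a*, *Cdkn1b*, *Cdkn1c*, *Cdkn2c* and *Cdkn2d*. All 10 had a mean of at least 1 FPKM over the 4 libraries (read fragments scaled to exon length and to the mapped reads of the library) and were among the 12363 genes tested.

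The study asked what the loss of the homeobox gene *Rax* does to gene expression in Müller glia, the radial glia of the retina. Control mice (numbers 7984 and 3911) carried Raxflox/WT and *Rax* iCKO mice (numbers 7983 and 3914) carried Raxflox/flox. All 4 mice also carried Rlbp1-CreERT2 and the reporter R26-CAG-LoxP-mTFP1, were labelled 129S6, and received tamoxifen at P4, and their retinas were taken at P14. The control mice therefore had 1 floxed *Rax* allele and the same Cre and tamoxifen. CreERT2 was driven by an *Rlbp1* promoter fragment, and *Rlbp1* is also active in the retinal pigment epithelium, so the sorted cells were defined by Cre activity rather than by a Müller glial surface marker. Each group was 2 mice with 1 library each.

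D-type cyclins bind Cdk4 or Cdk6, and the active kinases phosphorylate the retinoblastoma protein, which releases E2F factors and lets a cell pass from G1 into S phase. Cip/Kip proteins, encoded by *Cdkn1a*, *Cdkn1b* and *Cdkn1c*, bind cyclin and kinase together, whereas INK4 proteins, such as those encoded by *Cdkn2c* and *Cdkn2d*, bind Cdk4 or Cdk6 alone. Müller glia leave the cell cycle late in retinal development, and the adult mouse cells rarely divide again, although injury can bring D-type cyclins back.

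The libraries held an estimated 9270000 to 12720000 mapped reads. *Rax* stood at 189.1 and 181.4 FPKM in the control mice and at 111 and 98.4 FPKM in the *Rax* iCKO mice, so transcript of the targeted gene was still measured in both. *Socs3*, an inhibitor of cytokine signalling, stood at 29.1 and 28.6 FPKM against 9.27 and 6.80 FPKM. The 15 Müller glial markers summed to 12349 and 9186 FPKM in the control mice and 7858 and 7660 FPKM in the *Rax* iCKO mice, and the defining marker *Rlbp1* stood between 1292 and 2616 FPKM in all libraries. Rod and bipolar markers were present too, with 9 rod genes summing to between 1032 and 1671 FPKM and 8 bipolar genes to between 1815 and 2796 FPKM. *Xist* was at 24.5 and 21.2 FPKM in the control mice and at most 0.0119 FPKM in the *Rax* iCKO mice, so the groups also differed in this sex-linked transcript, and *Ddx3y* was above 0 only in mouse 7983. All 10 genes of the set are autosomal, which does not say whether their levels differ by sex. The part of sex in the differences of the set was not tested, and *Xist* and genotype cannot be told apart in these libraries. In bulk libraries such as these, fewer cells of a type and less RNA per cell cannot be told apart.

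Across the set, *Ccnd1* was lower and *Cdkn1c* was higher in both *Rax* iCKO mice than in both control mice, whereas the most abundant D-type cyclin, *Ccnd3*, and both kinases overlapped between the groups. *Ccnd1* averaged 0.517 of its control level and *Cdkn1c* 1.37 times its control level. None of the 10 genes passed the test across all genes (limma, Benjamini-Hochberg adjusted p of 1.0 for each), where 0.0243% of the genes tested did (0.00809% higher and 0.0162% lower). At an unadjusted limma p under 0.05, 1 of the 10 was called (*Ccnd1*), against 2.86% of all genes (1.26% higher and 1.60% lower). The groups did not overlap for 3 of the 10, with *Ccnd1* lower and *Ccnd2* and *Cdkn1c* higher, against 29.5% of all genes (14.1% lower and 15.4% higher). The median log2 difference over the 10 was -0.05, with 5 positive and 5 negative values, against a median of -0.0044 over all genes tested.

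**Figure D1:**
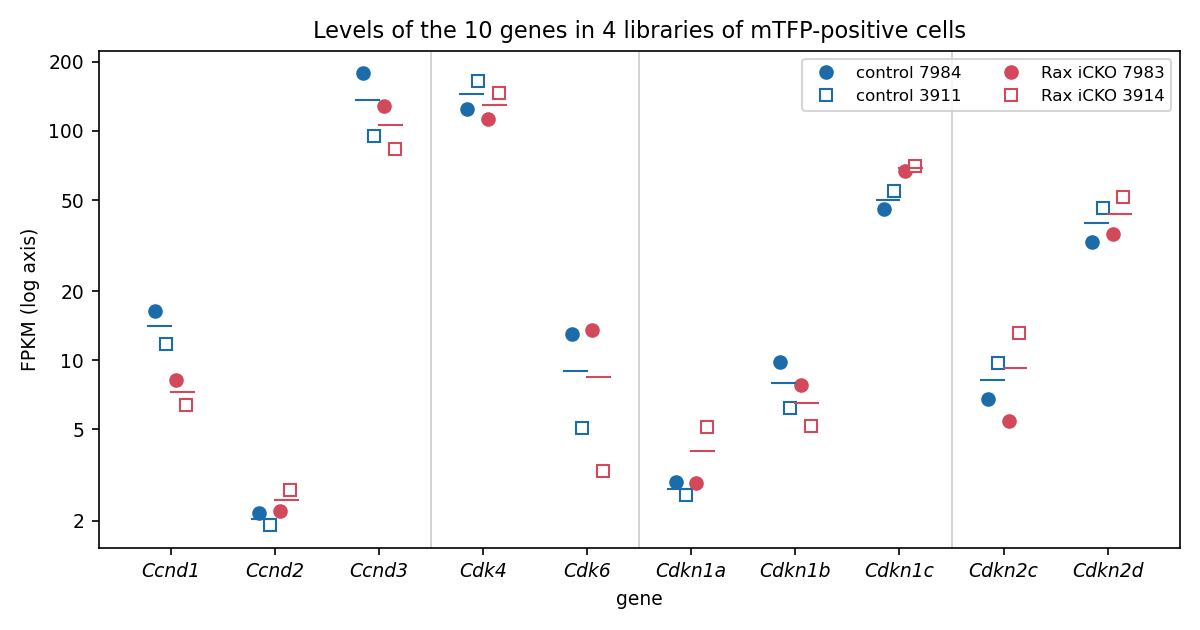
FPKM (log axis) of the 10 genes in each of the 4 libraries, control in blue and *Rax* iCKO in red, with 1 symbol per mouse and lines at the group means. *Ccnd1* lies lower in both *Rax* iCKO mice (8.19 and 6.41 FPKM against 16.5 and 11.8 FPKM) and *Cdkn1c* higher (67.1 and 70.1 FPKM against 45.8 and 54.6 FPKM), whereas *Cdk6* spreads from 3.31 to 13.6 FPKM with the highest and the lowest value in the *Rax* iCKO mice.

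Among the D-type cyclins, *Ccnd1* (chr7:144929931-144939925, minus strand, GRCm38) encodes cyclin D1, the D-type cyclin of dividing retinal progenitors. Its level was 16.5 FPKM in control mouse 7984, 11.8 FPKM in control mouse 3911, 8.19 FPKM in *Rax* iCKO mouse 7983 and 6.41 FPKM in *Rax* iCKO mouse 3914. Both *Rax* iCKO libraries thus lay below both control libraries, with a gap between 8.19 and 11.8 FPKM. The means were 14.1 ± 3.32 FPKM in control and 7.30 ± 1.25 FPKM in *Rax* iCKO mice (SD, n = 2 each). On the log2(FPKM + 1) scale, which understates changes of low genes, the difference was -0.86 (SE 0.27, 95% interval -1.52 to -0.19, limma p = 0.0193 unadjusted and 1.0 adjusted, exact permutation p = 0.33). That permutation p (two-sided) is the smallest that 2 against 2 mice allow. In fits that left out 1 library, which leave 1 group with a lone library assumed to vary like the other group, the unadjusted limma p was 0.0917 when mouse 7984 was left out, 0.0101 for mouse 3911, 0.0314 for mouse 7983 and 0.122 for mouse 3914. These FPKM correspond to an estimated 783 and 408 reads in the control libraries and 289 and 223 reads in the *Rax* iCKO libraries. *Ccnd1* shares 1100 exon bases with *Oraov1* (LTO1 in the annotation) on the opposite strand, and whether the counting used the strand is not given in the sources used here. *Oraov1* stood at 14.1 and 14.1 FPKM in the controls against 17.2 and 15.9 FPKM in the *Rax* iCKO libraries, the opposite direction to *Ccnd1*.

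*Ccnd2* (chr6:127125162-127152193, minus strand) encodes cyclin D2 and was the least abundant of the set. It read 2.16 FPKM in mouse 7984 and 1.91 FPKM in mouse 3911 (control), against 2.20 FPKM in mouse 7983 and 2.73 FPKM in mouse 3914 (*Rax* iCKO). The groups did not overlap, but the nearest values, 2.16 and 2.20 FPKM, almost met, and they overlapped after quantile normalization. The difference of 0.19 on the log2 scale had a 95% interval of -0.49 to 0.87 (limma p = 0.520 unadjusted, exact permutation p = 0.33). On the opposite strand, *Ccnd2* shares 368 exon bases with 9330179D12Rik (0.471 to 0.697 FPKM) and 372 with Gm43126.

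*Ccnd3* (chr17:47505051-47599691, plus strand) encodes cyclin D3, the D-type cyclin that prevails in many differentiated tissues. Its level measured 178 FPKM in mouse 7984 and 94.8 FPKM in mouse 3911 (control), against 129 FPKM in mouse 7983 and 83.3 FPKM in mouse 3914 (*Rax* iCKO). The groups overlapped, and mice 7984 and 7983 lay above mice 3911 and 3914. The log2 difference between genotypes was -0.33 (95% interval -1.24 to 0.59), less than the 0.76 between those pairs of mice. *Ccnd3* shares 361 exon bases with *Bysl* on the opposite strand, which was also higher in mice 7984 (24.9 FPKM) and 7983 (21.2 FPKM) than in mice 3911 (18.7 FPKM) and 3914 (18.2 FPKM).

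Of the 3 genes, *Ccnd3* supplied most of the D-type cyclin transcript. Its share of the summed FPKM of the 3 genes was 90.5% and 87.4% in the controls against 92.5% and 90.1% in the *Rax* iCKO libraries. The share of *Ccnd1* was 8.36% and 10.9% in the controls against 5.89% and 6.94% in the *Rax* iCKO libraries, and it was lower in both *Rax* iCKO mice. For that share the exact permutation p was 0.33, or 0.83 adjusted (Benjamini-Hochberg) over 10 shares and ratios. *Ccnd2* made up 1.095% and 1.76% in the controls against 1.59% and 2.96% in the *Rax* iCKO libraries, with overlapping groups. The ratio of *Ccnd3* to *Ccnd1* was 10.8 and 8.05 in the controls against 15.7 and 13.0 in the *Rax* iCKO libraries. With *Ccnd3* as most of the sum, this ratio nearly restates the share of *Ccnd1*. Shares and ratios within a library do not depend on how that library was scaled.

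**Figure D2:**
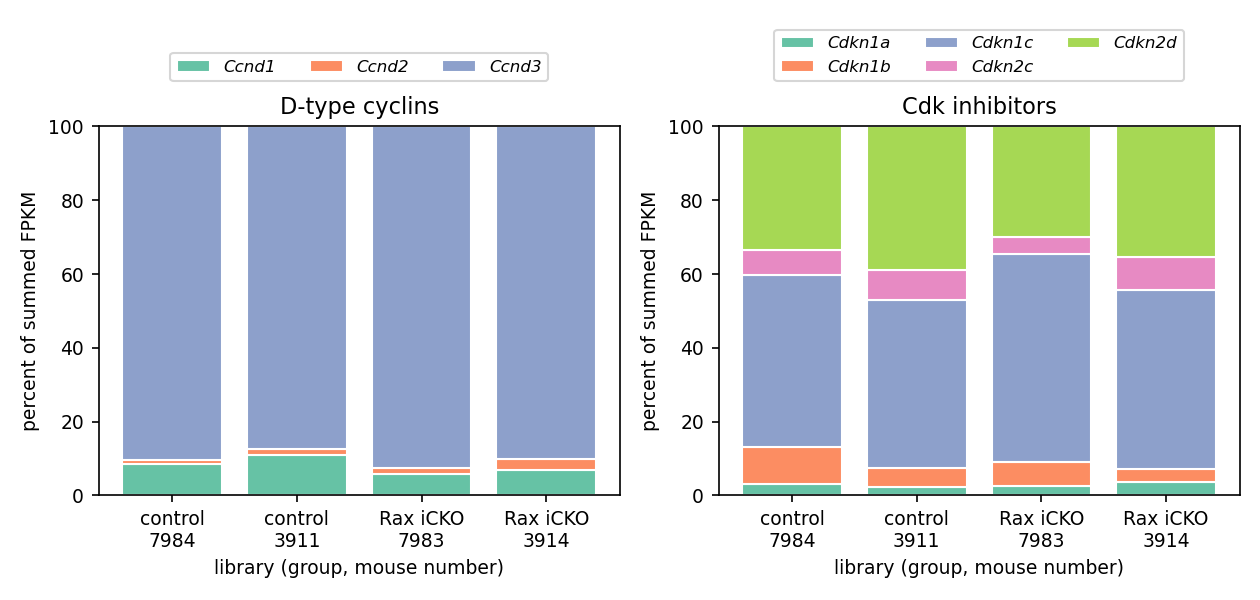
Share of each D-type cyclin in the summed FPKM of the 3 (percent, left) and of each Cdk inhibitor in the summed FPKM of the 5 (percent, right), 1 stacked bar per library. *Ccnd3* fills between 87.4% and 92.5% of every left bar, and *Cdkn1c* between 45.7% and 56.4% of every right bar.

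Of the kinases, *Cdk4* (chr10:127063534-127067920, plus strand) had the highest mean of the set, 137 FPKM, above that of 93.8% of the genes tested. It read 125 FPKM in mouse 7984 and 164 FPKM in mouse 3911 (control), against 113 FPKM in mouse 7983 and 147 FPKM in mouse 3914 (*Rax* iCKO). The groups overlapped, and the log2 difference of -0.15 had a 95% interval of -0.78 to 0.48. *Cdk4* shares 641 exon bases with *Tspan31* on the opposite strand, which stood at 208 and 178 FPKM in the controls against 170.4 and 172 FPKM in the *Rax* iCKO libraries (-0.17, lower without overlap), the direction of *Cdk4*.

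*Cdk6* (chr5:3341485-3531008, plus strand) encodes the second kinase partner of the D-type cyclins. It stood at 13.0 FPKM in control mouse 7984 and 5.08 FPKM in control mouse 3911, and at 13.6 FPKM in *Rax* iCKO mouse 7983 and 3.31 FPKM in *Rax* iCKO mouse 3914. The highest library was 4.12 times the lowest, the widest spread of the set, and the pairs of mice by number stood apart while the genotypes did not. The log2 difference between genotypes was -0.22, with a 95% interval of -1.81 to 1.38. *Cdk4* exceeded *Cdk6* by 9.64 and 32.4 times in the controls against 8.30 and 44.3 times in the *Rax* iCKO libraries. *Cdk6* shares 368 exon bases with Gm17590 on the opposite strand.

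Of the Cip/Kip inhibitors, *Cdkn1a* (chr17:29090976-29100727, plus strand) encodes p21, a target of p53. It read 2.94 FPKM in mouse 7984 and 2.58 FPKM in mouse 3911 (control), against 2.91 FPKM in mouse 7983 and 5.15 FPKM in mouse 3914 (*Rax* iCKO). Mouse 3914 alone was high, and mouse 7983 lay within the control range. The log2 difference was 0.38 (95% interval -0.40 to 1.17). Mouse 7983 differed from mouse 7984 by -0.01 and mouse 3914 from mouse 3911 by 0.78. An estimated 50 to 100 reads lay behind each value. *Cdkn1a* shares 273 exon bases with AC167363.2 on the opposite strand.

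*Cdkn1b* (chr6:134920401-134925513, plus strand) encodes p27, which restrains proliferation in retinal progenitors and Müller glia. RefSeq promoter windows, which run from 250 bases before to 50 bases after a start (GRCm38.p6), were searched for TAATT, the core of the motif bound by Rax, on both strands. The table matched 7 of the 10 genes in 10 windows, and *Ccnd1*, *Ccnd2* and *Cdkn1c* were not matched. TAATT was in 2 of the 10 windows, and in 27.0% of all 32851 windows. The windows that hold it are shown because they are where such letters occur in the set, with TAATT in capitals (TAATTA where the motif on both strands overlaps).

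Cdkn1b, chr6:134920151-134920450, plus strand: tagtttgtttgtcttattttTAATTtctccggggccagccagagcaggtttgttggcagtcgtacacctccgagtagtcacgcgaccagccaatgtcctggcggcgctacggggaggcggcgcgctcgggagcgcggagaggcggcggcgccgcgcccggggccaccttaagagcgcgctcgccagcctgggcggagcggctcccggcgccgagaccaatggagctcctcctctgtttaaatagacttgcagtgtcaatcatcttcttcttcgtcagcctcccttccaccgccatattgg

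Cdkn2c, chr4:109665323-109665622, minus strand: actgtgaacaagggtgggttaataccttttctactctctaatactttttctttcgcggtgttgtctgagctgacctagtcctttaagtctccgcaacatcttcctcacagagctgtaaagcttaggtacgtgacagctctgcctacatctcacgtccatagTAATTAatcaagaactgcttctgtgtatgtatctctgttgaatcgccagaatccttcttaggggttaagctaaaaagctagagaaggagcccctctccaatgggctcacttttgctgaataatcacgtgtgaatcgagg

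Counted from the start, the first base of the motif lies at -230 in the *Cdkn1b* window and at -89 in the *Cdkn2c* window. A match in a window is a description of its letters, not of binding. GGGCGG, the core of a GC box, was in 7 of the 10 windows against 35.7% of all windows. TTTCGCGC, TTTGGCGC, TTCNNNGAA and TGANTCA, searched on both strands as E2F (the first 2), STAT and AP-1 motifs, were in 0 of the 10 windows and in 0.323%, 0.514%, 8.30% and 7.81% of all windows.

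*Cdkn1b* measured 9.79 FPKM in mouse 7984 and 6.20 FPKM in mouse 3911 (control), against 7.83 FPKM in mouse 7983 and 5.16 FPKM in mouse 3914 (*Rax* iCKO). The groups overlapped, and each *Rax* iCKO mouse lay below the control mouse of the like number, by 0.29 and 0.23 on the log2 scale. The log2 difference of the means was -0.26 (95% interval -1.05 to 0.53).

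*Cdkn1c* (chr7:143458339-143461050, minus strand) encodes p57, an imprinted inhibitor active as retinal cells leave the cell cycle. Its level was 45.8 FPKM in control mouse 7984, 54.6 FPKM in control mouse 3911, 67.1 FPKM in *Rax* iCKO mouse 7983 and 70.1 FPKM in *Rax* iCKO mouse 3914. Both *Rax* iCKO libraries lay above both control libraries. The means were 50.2 ± 6.25 FPKM in control and 68.6 ± 2.11 FPKM in *Rax* iCKO mice (SD, n = 2 each). The log2 difference was 0.45 (SE 0.21, 95% interval -0.06 to 0.95, limma p = 0.0725 unadjusted and 1.0 adjusted, exact permutation p = 0.33). Mouse 7983 exceeded mouse 7984 by 0.54 and mouse 3914 exceeded mouse 3911 by 0.36 on that scale. An estimated 962 to 1240 reads lay behind each value. *Ccnd1* came to 36.0 and 21.6 FPKM per 100 FPKM of *Cdkn1c* in the control libraries and to 12.2 and 9.15 FPKM in the *Rax* iCKO libraries. Both genes had already been seen not to overlap, in opposite directions, so this ratio only restates their differences. *Cdkn1c* shares 625 exon bases with the annotated antisense transcript Gm44732.

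Of the INK4 inhibitors, *Cdkn2c* (chr4:109660876-109667189, minus strand) encodes p18. It read 6.78 FPKM in mouse 7984 and 9.72 FPKM in mouse 3911 (control), against 5.44 FPKM in mouse 7983 and 13.1 FPKM in mouse 3914 (*Rax* iCKO). The highest and the lowest value were both from *Rax* iCKO mice, and the log2 difference was 0.06 (95% interval -0.96 to 1.08). *Cdkn2d* (chr9:21288410-21291407, minus strand) encodes p19, the INK4 member that keeps postmitotic neurons out of the cell cycle together with p27. It read 32.8 FPKM in mouse 7984 and 46.3 FPKM in mouse 3911 (control), against 35.7 FPKM in mouse 7983 and 51.3 FPKM in mouse 3914 (*Rax* iCKO). The groups overlapped, and the log2 difference was 0.13 (95% interval -0.55 to 0.81).

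*Cdkn1c* and *Cdkn2d* made up most of the inhibitor transcript. The share of *Cdkn1c* in the summed FPKM of the 5 inhibitors was 46.7% and 45.7% in the controls against 56.4% and 48.4% in the *Rax* iCKO libraries. These groups did not overlap (exact permutation p = 0.33, or 0.83 adjusted over 10 shares and ratios). The share of *Cdkn2d* was 33.4% and 38.8% in the controls against 30.0% and 35.4% in the *Rax* iCKO libraries, which overlapped. Summed inhibitors came to 0.498 and 1.102 times the summed D-type cyclins in control and 0.856 and 1.57 times in *Rax* iCKO mice. That ratio was higher in the *Rax* iCKO mouse within each pair of like numbers, by 0.78 and 0.51 on the log2 scale, but the groups overlapped.

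By mean FPKM, a scale per length, the order of levels was *Cdk4* (137 FPKM), *Ccnd3* (121 FPKM), *Cdkn1c* (59.4 FPKM), *Cdkn2d* (41.5 FPKM), *Ccnd1* (10.7 FPKM), *Cdkn2c* (8.76 FPKM), *Cdk6* (8.75 FPKM), *Cdkn1b* (7.25 FPKM), *Cdkn1a* (3.40 FPKM) and *Ccnd2* (2.25 FPKM). The ranges of *Cdk4* and *Ccnd3* overlapped, and *Ccnd3* exceeded *Cdk4* in mice 7984 and 7983 but not in mice 3911 and 3914. Ranges also overlapped between neighbours among *Ccnd1*, *Cdkn2c*, *Cdk6* and *Cdkn1b*. No overlap was found between *Ccnd3* and *Cdkn1c*, between *Cdkn2d* and *Ccnd1* or between *Cdkn1b* and *Cdkn1a*. *Cdkn1c* exceeded *Cdkn2d*, and *Cdkn1a* exceeded *Ccnd2*, in all 4 libraries, although the ranges of each pair overlapped across libraries.

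**Figure D3:**
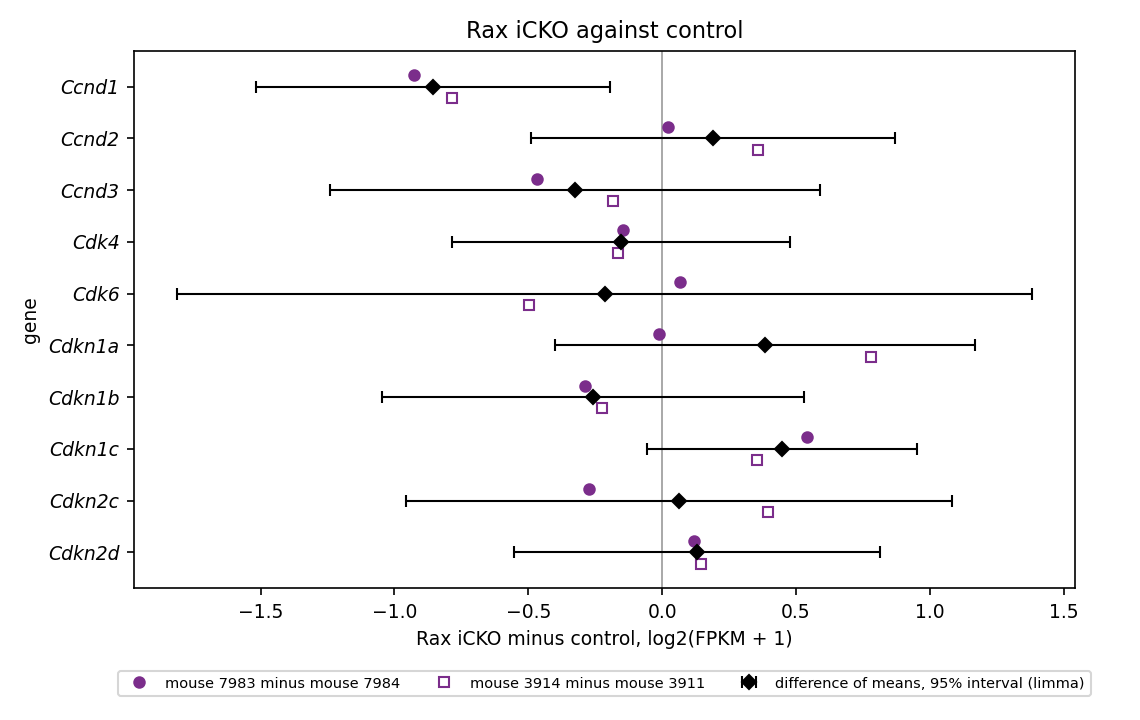
Difference of *Rax* iCKO minus control on the log2(FPKM + 1) scale for the 10 genes. Diamonds are differences of means with their 95% intervals from limma, and the other symbols are the differences between mice 7983 and 7984 and between mice 3914 and 3911. The interval of *Ccnd1* (-1.52 to -0.19) alone lies to one side of 0.

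The mice fall into 2 runs of numbers, each with 1 mouse of each genotype, and the labels do not say what a run stands for. The runs stood apart for 6 of the 10 genes, with *Cdk6* (1.48 on the log2 scale), *Ccnd3* (0.76) and *Cdkn1b* (0.55) higher and *Cdkn2c* (-0.80), *Cdkn2d* (-0.50) and *Cdk4* (-0.38) lower in mice 7983 and 7984, against 55.9% of all genes tested. For these same 6 genes the difference between runs was larger than that between genotypes. The genotype difference had the same sign in both runs for 7 of the 10, against 62.3% of all genes tested, and was -0.93 and -0.78 for *Ccnd1*. The 8 endothelial and pericyte markers summed to 492 and 410 FPKM in mice 7984 and 7983 and to 241 and 255 FPKM in mice 3911 and 3914. Almost all of that sum was *Kdr* (228 to 464 FPKM) and *Pdgfrb* (10.3 to 24.7 FPKM), whereas the endothelial markers *Pecam1*, *Cdh5* and *Tek* were at most 0.638, 0.104 and 0.149 FPKM. The part of these 2 transcripts in the differences between runs was not tested.

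Markers of several cell types lay mostly to one side between the genotypes, with none called at an adjusted limma p under 0.05. Müller glial markers had a median log2 difference of -0.30, with 14 of 15 negative and 3 lower without overlap, and that median was -0.0078 without control mouse 7984 and -0.62 without control mouse 3911. Rod markers had a median of -0.57, with 7 of 9 lower without overlap, and bipolar markers a median of 0.34, with 5 of 8 higher without overlap, beside 14.1% lower and 15.4% higher of all genes tested. The 8 microglial and leukocyte markers, of which 7 were tested (median -0.30), summed to 39.8 and 42.4 FPKM in control mice and to 71.5 and 9.50 FPKM in *Rax* iCKO mice. Of 6 pigment epithelium markers, *Rrh* (-0.58, lower without overlap) and *Ttr* (0.76) were tested. The sum of the 6 was lower in both *Rax* iCKO mice (177 and 167 FPKM against 265 and 237 FPKM) and was mostly *Rrh*, while *Rpe65* was at most 0.774 FPKM and *Mlana* was listed at 0 in all libraries. The remaining lists were low except for the cone markers, with sums of 142 to 199 FPKM for cones (6 of 7 tested, median -0.09), 5.22 to 11.1 FPKM for amacrine and horizontal cells (2 of 8, -0.02), 6.38 to 15.1 FPKM for ganglion cells (4 of 7, -0.33) and 10.7 to 18.0 FPKM for astrocytes (3 of 4, -0.25), whose sum was lower in both *Rax* iCKO mice (10.7 and 12.2 FPKM against 12.9 and 18.0 FPKM). The ganglion cell marker *Pou4f1* was listed at 0 in all libraries, the astrocyte marker *Pax2* was at most 0.0381 FPKM, and 2 of 8 endothelial and pericyte markers were tested (median -0.05). The part of these cell types in the differences of the set was not tested.

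Per 10000 FPKM of the 15 Müller glial markers, a scale added after the data were seen and taken to log2 without a pseudocount, *Ccnd1* stood at 13.3 and 12.8 in the controls against 10.4 and 8.37 in the *Rax* iCKO libraries and remained lower in both (-0.48 on the log2 scale). *Cdkn1c* stood at 37.1 and 59.4 in the controls against 85.4 and 91.5 in the *Rax* iCKO libraries (0.91). Because the marker sums were lower in *Rax* iCKO mice, this scale adds 0.46 to the log2(FPKM) difference of every gene alike. On it the groups did not overlap for 47.6% of all genes tested in the higher and 1.26% in the lower direction. *Ccnd2* (0.73) and *Cdkn1a* (0.95) were also higher without overlap, and nothing is read from the higher values against that share.

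**Figure D4:**
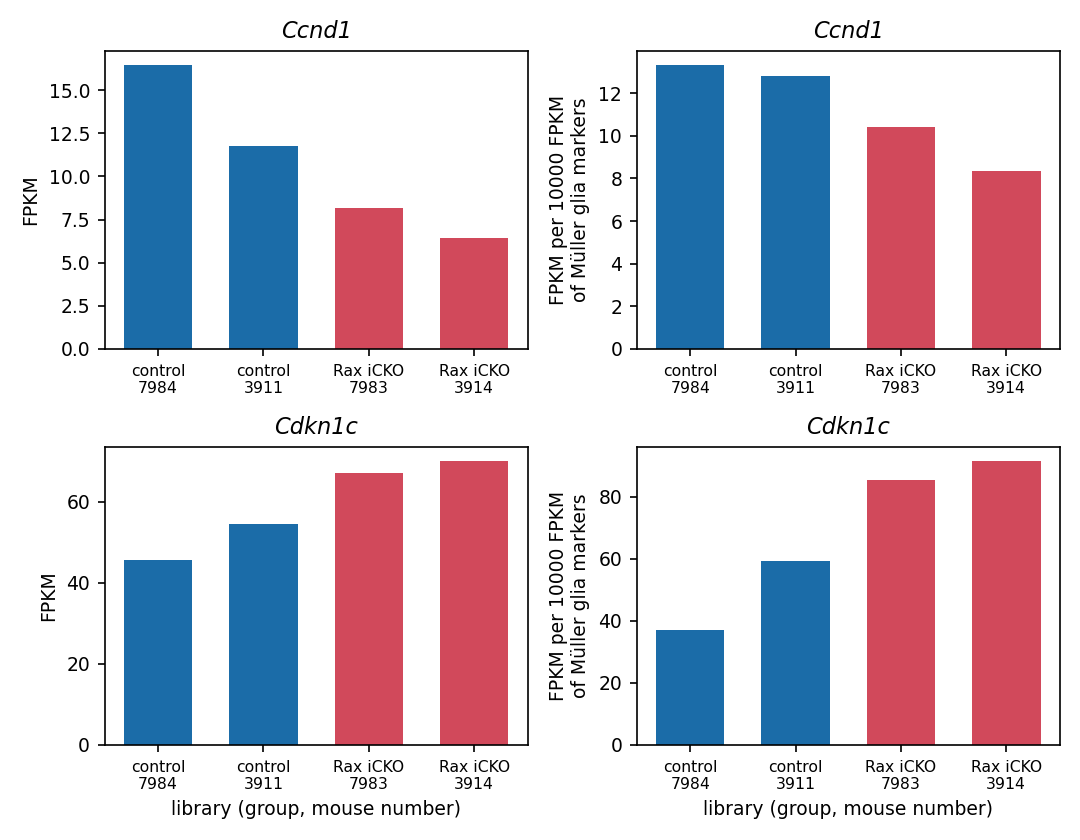
*Ccnd1* (top) and *Cdkn1c* (bottom) in each library, as FPKM (left) and per 10000 FPKM of the 15 Müller glial markers (right), with 1 bar per mouse. On both scales both *Rax* iCKO bars lie below both control bars for *Ccnd1* (10.4 and 8.37 against 13.3 and 12.8 on the right) and above them for *Cdkn1c*. On the right scale 47.6% of all genes tested were higher without overlap, so nothing is read from the higher *Cdkn1c* bars there.

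Of 23 progenitor and proliferation genes, which summed to between 96.0 and 128 FPKM, those of mitosis were low and some of DNA replication were not. *Mki67* was at most 0.0218 FPKM and *Top2a* at most 0.193 FPKM in any library, and *Cdk1*, the mitotic kinase, at most 0.364 FPKM, whereas *Cdc20* reached 3.52 FPKM and *Ccna2* 2.71 FPKM. *Pcna*, the sliding clamp of DNA polymerase, stood between 52.0 and 77.3 FPKM and the helicase subunit *Mcm7* between 10.3 and 15.1 FPKM. Of the 23 genes 12 were tested, with a median log2 difference of -0.02. Of these, 4 were lower and 2 higher without overlap, beside 14.1% lower and 15.4% higher of all genes tested. The helicase subunits *Mcm2*, *Mcm3*, *Mcm5* and *Mcm7* were those lower, whereas *Mcm4* of the same helicase was higher without overlap (0.19).

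Around the set, 8 lists of 79 entries in all, 69 of them tested, held no gene called at an adjusted limma p under 0.05. Of the INK4 relatives, *Cdkn2a* was listed at 0 in all 4 libraries and *Cdkn2b* stood at 1.05 and 1.26 FPKM in the controls against 2.31 and 1.26 FPKM in the *Rax* iCKO libraries. Of 5 tested genes of cyclin E, cyclin A and Cdk2, *Cdk2* alone did not overlap, at 9.01 and 6.73 FPKM in the controls against 6.07 and 6.40 FPKM in the *Rax* iCKO libraries (-0.28). Of 11 tested Rb family and E2F genes (median 0.03), *E2f3* (0.38) and *E2f6* (0.22) were higher and *E2f5* (-0.41) and *Tfdp2* (-0.14) lower without overlap, beside 29.5% of all genes in either direction. The 3 genes of the Cdk-activating kinase all overlapped (median -0.07). Of 11 tested genes for the degradation of D-type cyclins and Cdk inhibitors (median 0.18), 3 were higher and 1 lower without overlap, beside 15.4% higher and 14.1% lower of all genes tested. Those higher were *Fbxo31* (0.31), which targets cyclin D1, *Ddb1* (0.21) and *Cul4a* (0.18), and *Skp1a* (-0.35) was lower.

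Inputs to *Cdkn1a* and *Ccnd1* were described by 3 further lists. Of 14 genes of p53 and its targets (median 0.02), 2 were higher and 4 lower without overlap, beside 15.4% higher and 14.1% lower of all genes tested. *Mdm2*, the ubiquitin ligase that opposes p53, stood at 22.7 and 22.5 FPKM in the controls against 30.9 and 28.3 FPKM in the *Rax* iCKO libraries (0.38). *Plk2* stood at 27.7 and 26.04 FPKM in the controls against 18.3 and 17.7 FPKM in the *Rax* iCKO libraries, with an unadjusted limma p under 0.05, and *Btg2* (-0.46) and *Phlda3* (-0.35) were also lower without overlap. Of 9 tested mitogen and Myc inputs (median 0.11), 3 were higher without overlap, beside 15.4% of all genes tested. *Mycn* stood at 15.2 and 17.9 FPKM in the controls against 23.5 and 24.9 FPKM in the *Rax* iCKO libraries (0.52, also at an unadjusted limma p under 0.05). The others were *Smad3* (0.45) and *Ctnnb1* (0.11). Immediate early genes, which report recent stimulation, were lower in 15 of 15 tested genes (median -0.42), with 10 not overlapping between the groups (14.1% of all genes were lower without overlap) and 5 at an unadjusted limma p under 0.05 (1.60% of all genes, lower). That median was -0.15 without control mouse 7984 and -0.71 without control mouse 3911. Their sum was 4228 and 3386 FPKM in the controls against 3016 and 2583 FPKM in the *Rax* iCKO libraries, the direction of *Ccnd1*, and their part in its difference was not tested. Retinas were dissociated with papain and sorted before RNA extraction, and the part of this handling in immediate early genes was not tested.

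**Figure D5:**
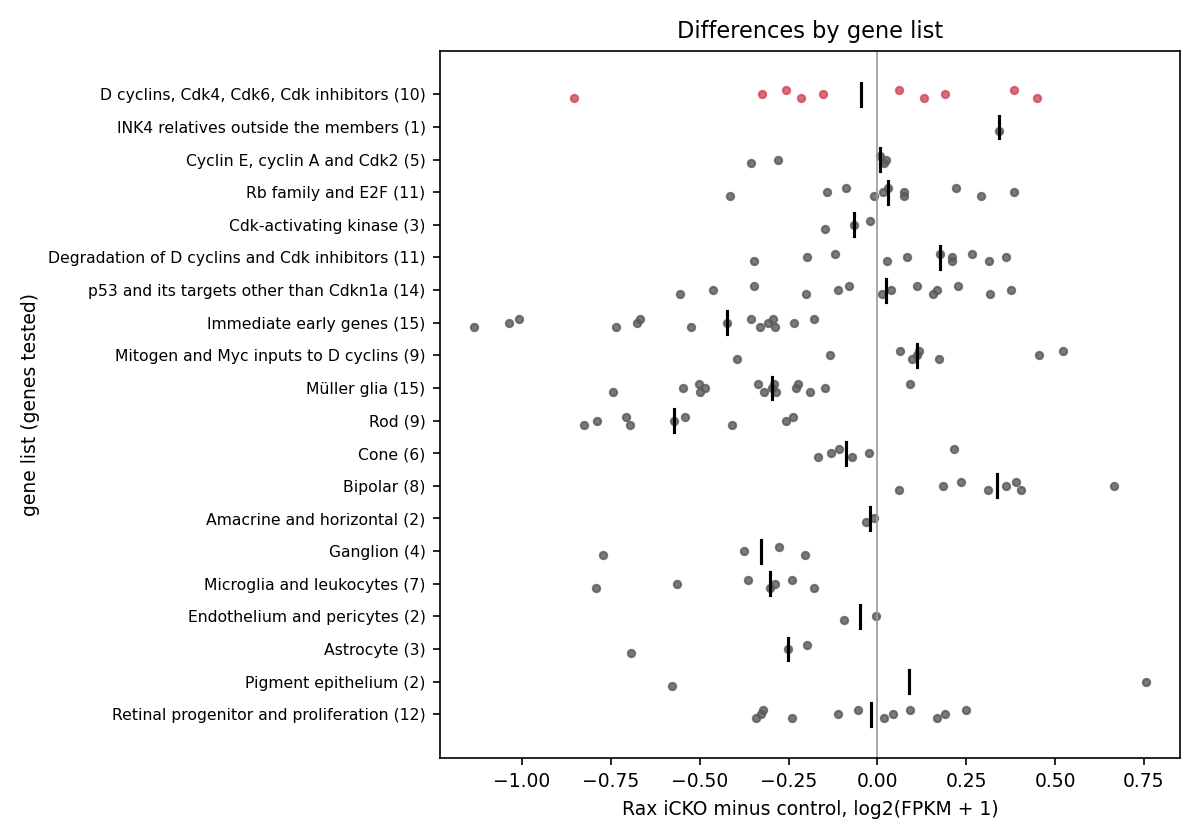
Log2 difference of *Rax* iCKO minus control for each tested gene of the set, of 8 lists around it and of the cell type markers, with 1 point per gene and the median marked. Immediate early genes (median -0.42) and rod markers (median -0.57) lie below 0, bipolar markers above it (median 0.34).

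The genes most like *Ccnd1* in profile over the 4 libraries, by Euclidean distance between centred log2(FPKM + 1) values among 9166 genes with a mean of at least 5 FPKM, were *Pdlim3* (distance 0.107), *Galm* (0.130) and *Tst* (0.133). *Pdlim3* stood at 28.8 and 21.5 FPKM in the controls against 15.8 and 11.3 FPKM in the *Rax* iCKO libraries. Those most like *Cdkn1c* were *Adgrb3* (0.0386), *Mapre2* (0.0426) and *Gprasp1* (0.0514), and those most like *Cdkn1a* were *Nktr* (0.0483), *Tmem110* (0.0596) and *Rita1* (0.104).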

How the data were processed

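RNA was measured by RNA-seq in 4 libraries of mTFP-positive cells sorted from P14 retinas, 2 control and 2 *Rax* iCKO, grouped by the genotype in the labels. Per the methods, single-end reads were aligned to the mm10 build, and the authors deposited gene-level FPKM of each library from Cufflinks. The submitters' processing notes name TopHat2 2.1.1, Bowtie2 2.2.8, SAMtools 0.1.18 and Cuffdiff 2.2.1, and the study's methods give other versions for some of these. The labels name a spin-column kit for the RNA and full-length cDNA amplification, whereas the methods name a phenol reagent.

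FPKM were used as deposited. Genes with a mean of at least 1 FPKM entered a limma fit on log2(FPKM + 1), with lmFit and eBayes with trend (limma 3.58.1, R 4.3.3), two-sided, with Benjamini-Hochberg adjustment over 12363 genes, beside exact permutation tests for single genes. On simulated data of this comparison, 1 of 200 genes changed by 1 on the log2 scale and 196 of 200 changed by 2 were called, among 12218 and 12220 genes, with 1 and 26 unchanged genes called. The numbers in the sample titles were read as mouse numbers, and p-values measure the spread between these libraries. Depth was estimated from whole-read steps: 87.3% of 2310 genes of at most 0.5 FPKM had values within 0.05 of whole reads. No count test was run.

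Coordinates are from GENCODE (GRCm38, the build mm10) and promoter sequences from RefSeq (GRCm38.p6). In each list around the set, at most 4 genes were named, by the largest difference among those whose groups did not overlap. The INK4 relatives *Cdkn2a* and *Cdkn2b* were named outside this rule. For the 3 members that differed most, the 3 nearest profiles were named. The lower *Mcm* genes were named by the same rule in the marker lists. Other markers of cell type, sex or division, and genes overlapping the set, were named after their values were seen. Members, lists and rules were chosen with earlier results of these data known. Alternatives were a pseudocount of 0.1, no filter or a mean of at least 5 FPKM, quantile, median and total scaling, no variance trend, a block by mouse number and leaving out each library.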

Additional observations from a re-analysis of the deposited data

How the results depend on the processing

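No gene of the set passed an adjusted limma p of 0.05 under any alternative. With 2 mice a group, differences of the size seen here were seldom called in simulated data, so a missed threshold does not show that a gene did not differ. Leaving out each library in turn gave log2 differences of -1.08 to -0.63 for *Ccnd1*, 0.08 to 0.30 for *Ccnd2*, 0.06 to 0.71 for *Cdkn1a* and 0.32 to 0.57 for *Cdkn1c*, which kept their direction. It turned the direction of the others, with ranges of -0.78 to 0.13 for *Ccnd3*, -0.35 to 0.0417 for *Cdk4*, -1.10 to 0.67 for *Cdk6*, -0.55 to 0.0338 for *Cdkn1b*, -0.50 to 0.63 for *Cdkn2c* and -0.12 to 0.39 for *Cdkn2d*. Control mouse 7984 turned each of these but *Cdk4*, *Rax* iCKO mouse 3914 turned *Cdk6*, *Cdkn1b*, *Cdkn2c* and *Cdkn2d*, and control mouse 3911 and *Rax* iCKO mouse 7983 turned *Cdk4*. Per summed Müller glial markers, *Ccnd3* (0.13), *Cdk4* (0.30), *Cdk6* (0.18) and *Cdkn1b* (0.16) were positive, on a scale that adds 0.46 to every gene and has no pseudocount. The cause of the other turns was not tested. Without 1 library, the medians of 12 of the 19 lists turned in sign in at least 1 fit, and those of the other 7 did not. The widest ranges were -1.38 to 0.66 for microglia, -0.60 to 0.50 for endothelium, -0.55 to 0.51 for amacrine and horizontal cells and -0.35 to 0.41 for the mitogen and Myc inputs. Ranges were -0.62 to -0.0078 for Müller glia, -0.76 to -0.32 for rods, 0.19 to 0.58 for bipolar cells, -0.71 to -0.15 for immediate early genes, -0.09 to 0.05 for p53 and its targets and 0.03 to 0.25 for degradation. Over the alternatives that can move them, 232 values of list medians, shares and ratios moved by less than the spread between libraries and 25 by more.

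Over all genes, 1 was called higher and 2 lower. The counts were 0 and 0 without a filter, with a mean of at least 5 FPKM and with equal totals. The number higher was 2 with quantile normalization and 3 with equal medians. Leaving out a library gave 8 to 14 higher and 5 to 12 lower. Equal totals moved the median of all genes to 0.11, and *Ccnd1* was then at -0.73, or -0.85 relative to that median, and no longer at an unadjusted limma p under 0.05. *Cdkn1c* was under that threshold with equal totals and with quantile normalization.

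The labels do not say that mouse numbers pair the mice. Deviations from the group means of mice of the same run of numbers correlated at 0.50 over 12363 genes. With the run as a replicate block, limma called 24 genes higher and 47 lower, and the adjusted p was 0.0578 for *Ccnd1* and 0.145 for *Cdkn1c*, so the block changed no adjusted call in the set. At an unadjusted limma p under 0.05 the block called 3 of the 10 genes (*Ccnd1*, *Cdkn1c* and *Ccnd3*) rather than 1, against 15.7% rather than 2.86% of all genes.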
